A study of Mus musculus with 64 samples.

Results

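The 38 genes described here encode proteins of the complement and blood coagulation systems that are found in plasma. They were chosen by name, as genes that stand for complement activation, its terminal attack complex and its inhibitors, and for the clotting factors, fibrinogen and the anticoagulant and fibrinolytic proteins. All 38 were in the count table, among 53008 gene names, and all 38 passed the filter on low counts that left 17318 genes for testing. They fall into 8 roles, and the results follow those roles.

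Liver RNA came from wild-type mice (WT) and from HuMgat2 mice, which express human MOGAT2, an enzyme that joins a fatty acid to monoacylglycerol. Mice of each genotype were fed chow or a high-fat diet (HFD) for 16 weeks, and the livers were taken when the study ended. This gave 4 groups of 4 libraries: WT on chow (libraries 5 to 8), WT on HFD (libraries 1 to 4), HuMgat2 on chow (libraries 13 to 16) and HuMgat2 on HFD (libraries 9 to 12). Strain, age, sex and the way human MOGAT2 was introduced are not given in the labels used here. The labels name no batch, and nothing in them says whether the 4 libraries of a group came from mice housed or handled apart.

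Complement is a cascade of plasma proteases that is started by antibody (classical route), by carbohydrate-binding lectins (lectin route) or by slow spontaneous turnover of C3 (alternative route). All routes meet at the cleavage of C3 and then of C5, after which C5b gathers C6, C7, C8 and several copies of C9 into a pore in the target membrane. Coagulation is a second protease cascade, which ends with thrombin cutting fibrinogen into fibrin, and plasmin later dissolves the clot. Hepatocytes make most of these proteins, and several of them, fibrinogen and C3 among them, are known as acute-phase proteins whose synthesis follows interleukin-6 and related signals.

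A single library has to be described before the results. WT HFD library 4 held 12.4 M counts, against 19.4 to 25.8 M in the other 15 libraries. Albumin took 0.85% of its counts, against 3.26% to 6.02% in the others, and the 38 genes together took 6.12%, against 2.08% to 3.41%. Levels are given as CPM, counts divided by the library total, scaled by the TMM method named below, and multiplied up to a common scale. The summed level of 16 acute-phase genes outside the 38 was 52171 CPM in library 4. In the other 3 WT HFD libraries it was 5067 to 9474 CPM. The summed macrophage markers of library 4 stood at 1497 CPM against 350 to 557 CPM in the other 3. Its neutrophil markers stood at 75.8 CPM against 2.47 to 5.13 CPM. Their part in the results was not tested, and the results below name this library where leaving it out changes a call or a count.

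Within its group, library 4 was the highest for 23 of the 38 genes and the lowest for 8. It lay above all other 15 libraries for 18 of them and below all 15 for 4. The same counts were not taken over all genes. They cannot show whether the 38 genes were more extreme in library 4 than other genes. The genes furthest above the mean of the other 3 WT HFD libraries were Fgb (4.04 times), Fga (3.87 times), C3 (3.57 times), Fgg (3.52 times) and Cfp (2.68 times). The contact and intrinsic factors Klkb1 (0.52 times) and F11 (0.467 times) were furthest below, apart from Cfd, which is described with the alternative route.

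**Figure D1:**
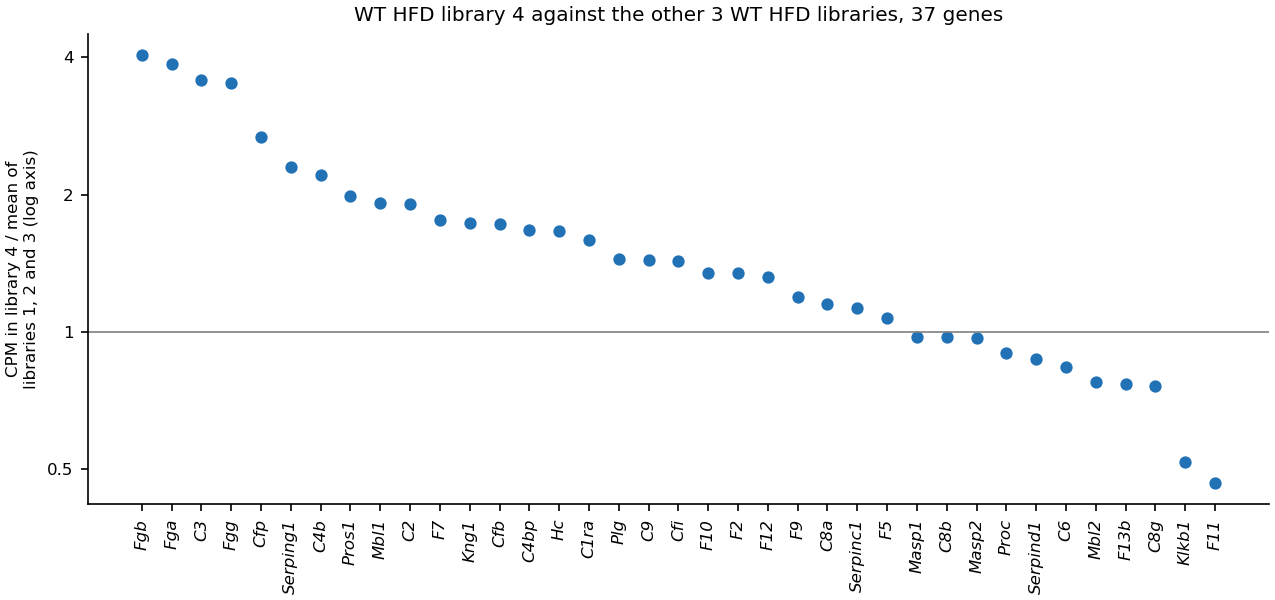
Ratio of the TMM-scaled CPM in WT HFD library 4 to the mean of WT HFD libraries 1, 2 and 3 (vertical axis, log scale) for 37 of the 38 genes (horizontal axis, in order of the ratio; Cfd is left out). The 3 fibrinogen chains and C3 lie between 3.52 and 4.04 times, and F11 and Klkb1 at 0.467 and 0.52 times.

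Levels are CPM scaled by the TMM method (trimmed mean of M values), given per library in the order of the library numbers or as mean ± SD with n = 4. The words rose, fell and changed are kept for genes where the edgeR quasi-likelihood test gave a Benjamini-Hochberg adjusted p below 0.05 over all 17318 genes tested. In bulk tissue fewer cells of a type and less RNA per cell cannot be told apart.

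The question of each comparison was how diet or genotype went with the levels of these genes. The fall that stood out was in HuMgat2 mice on HFD, where C6, C8a, C8b and C9 of the terminal attack complex and the clotting factors F7 and F11 were lower than on chow and lower than in WT on HFD. Of the 38 genes, 11 fell and 1 rose between chow and HFD in HuMgat2 mice, where 6.4% of all tested genes fell and 7.56% rose. In WT mice 5 rose and 0 fell, where 8.37% of all genes rose and 6.74% fell. On HFD, 12 genes were lower and 1 was higher in HuMgat2 than WT, against 7.56% and 7.21% of all genes. On chow, 0 of the 38 differed between the genotypes in the edgeR test, where 0.266% of all genes were higher in HuMgat2 and 0.243% lower. Of the 38, 3 had an unadjusted p below 0.05. The share of all tested genes at that unadjusted cut was not taken, so this count has nothing to be set against. DESeq2 also called 0 of them on chow. The diet change differed between the genotypes for 8 of the 38, each time more negative in HuMgat2, against 2.26% of all genes in that direction and 2.61% in the other. The 4 libraries of each group did not overlap for 6 of the 38 genes with diet in WT and 23 in HuMgat2, beside 18.2% and 21% of all tested genes. They did not overlap for 4 between genotypes on chow and 10 on HFD, beside 6.62% and 21.2%.

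The median log2 change of the 38 genes was 0.11 with diet in WT and -0.43 with diet in HuMgat2, beside 0.03 and -0.01 over all tested genes. It was -0.37 between the genotypes on HFD and 0.15 on chow, beside -0.04 and 0.00. Scaling by library totals in place of TMM raised the median of all genes by 0.24 with diet in HuMgat2 and turned the split of all calls from 1309 higher and 1109 lower to 3326 and 407. Relative to all genes, the median of the 38 was -0.42 with TMM and -0.40 with library totals. The same scaling turned the WT diet split from 1449 higher and 1168 lower to 847 and 1390, the split on chow from 46 and 42 to 27 and 61, the HFD genotype split from 1249 and 1309 to 2756 and 624, and the interaction split from 452 and 392 to 2096 and 207. Under library totals the HuMgat2 diet calls of C2, Masp1, F10, Serpind1 and Klkb1 were lost (adjusted p up to 0.292), as were those of Cfp, C4bp and Masp2 in WT, of Serping1 and Kng1 between genotypes on HFD, and of C2, Masp1 and F7 for the difference between diet changes. Without a filter on low counts the calls of C4bp and Masp2 in WT, F10 and Serpind1 in HuMgat2, Kng1 on HFD and Masp1 for the difference were lost. In fits of only the groups compared the calls of Cfp, C4bp and Pros1 in WT and of Serping1 and Kng1 on HFD were lost.

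Leaving out WT HFD library 4 moved these counts. In HuMgat2 mice, whose own libraries it is not part of, 21 of the 38 then fell and 1 rose, with 8.58% of all genes lower and 10.7% higher. The 10 added genes were C1ra, Hc, C3, Serping1, Fga, Fgb, Fgg, Plg, Proc and Kng1. Their HuMgat2 changes hardly moved, while the SE of each was smaller. Fga was at log2 -0.630 ± 0.361 SE with library 4 and -0.629 ± 0.156 SE without it, and C3 at -0.938 ± 0.361 SE and -0.937 ± 0.183 SE. The median HuMgat2 change of the 38 was -0.429 and -0.428. In this fit all groups share 1 estimate of the spread. In WT, 3 then rose and 1 fell, with 7.69% and 7.01% of all genes. On HFD 12 were lower and 0 higher in HuMgat2, with 6.79% and 7.39% of all genes. On chow 1 was higher, Pros1, with 0.635% of all genes higher and 0.521% lower. For 10 the diet change was more negative in HuMgat2, as for 3% of all genes, with 3.4% in the other direction. In all, 20 of the 38 genes were called in at least 1 of the 5 comparisons with all libraries, and 11 were called in none with or without library 4. Those 11 were Mbl1, Cfb, C8g, Cfi, F2, F9, F5, F12, F13b, Serpinc1 and C4b.

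**Figure D2:**
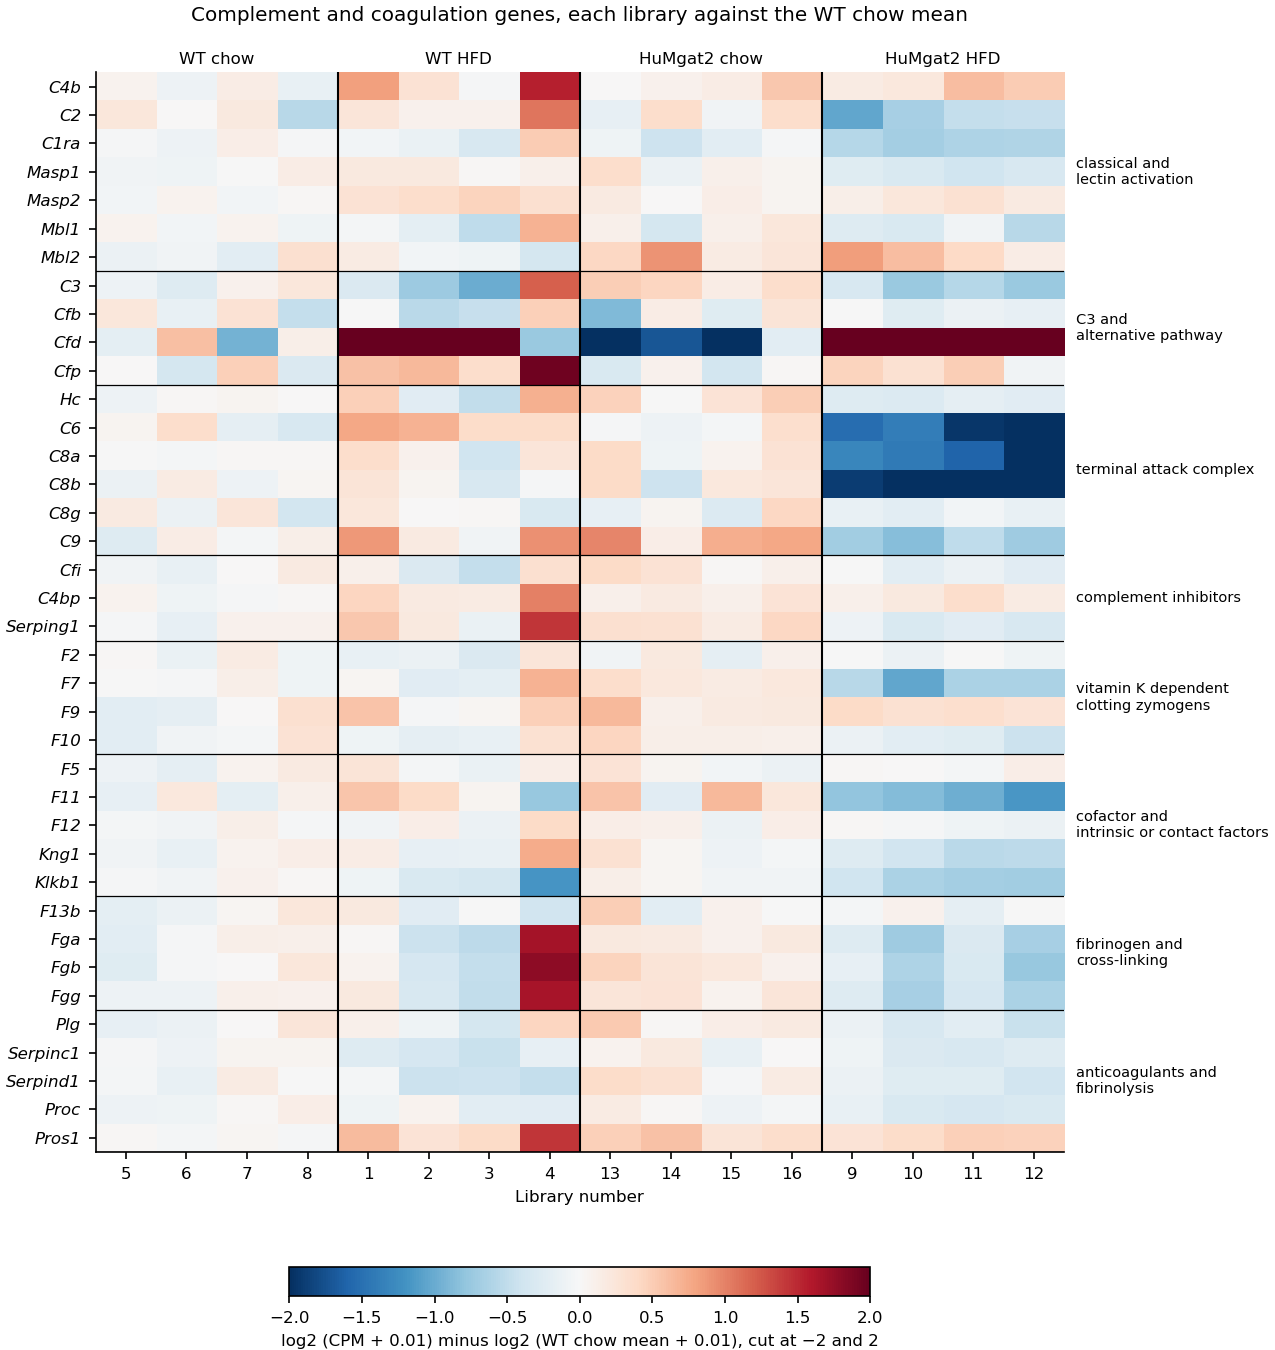
Level of the 38 genes (rows, grouped by role) in the 16 libraries (columns, by group), as log2 of the CPM plus 0.01 against the WT chow mean plus 0.01, with colours cut at -2 and 2. C6, C8a and C8b are blue in all 4 HuMgat2 HFD libraries, and WT HFD library 4 is red for C3, the fibrinogen chains and Serping1.

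**Figure D3:**
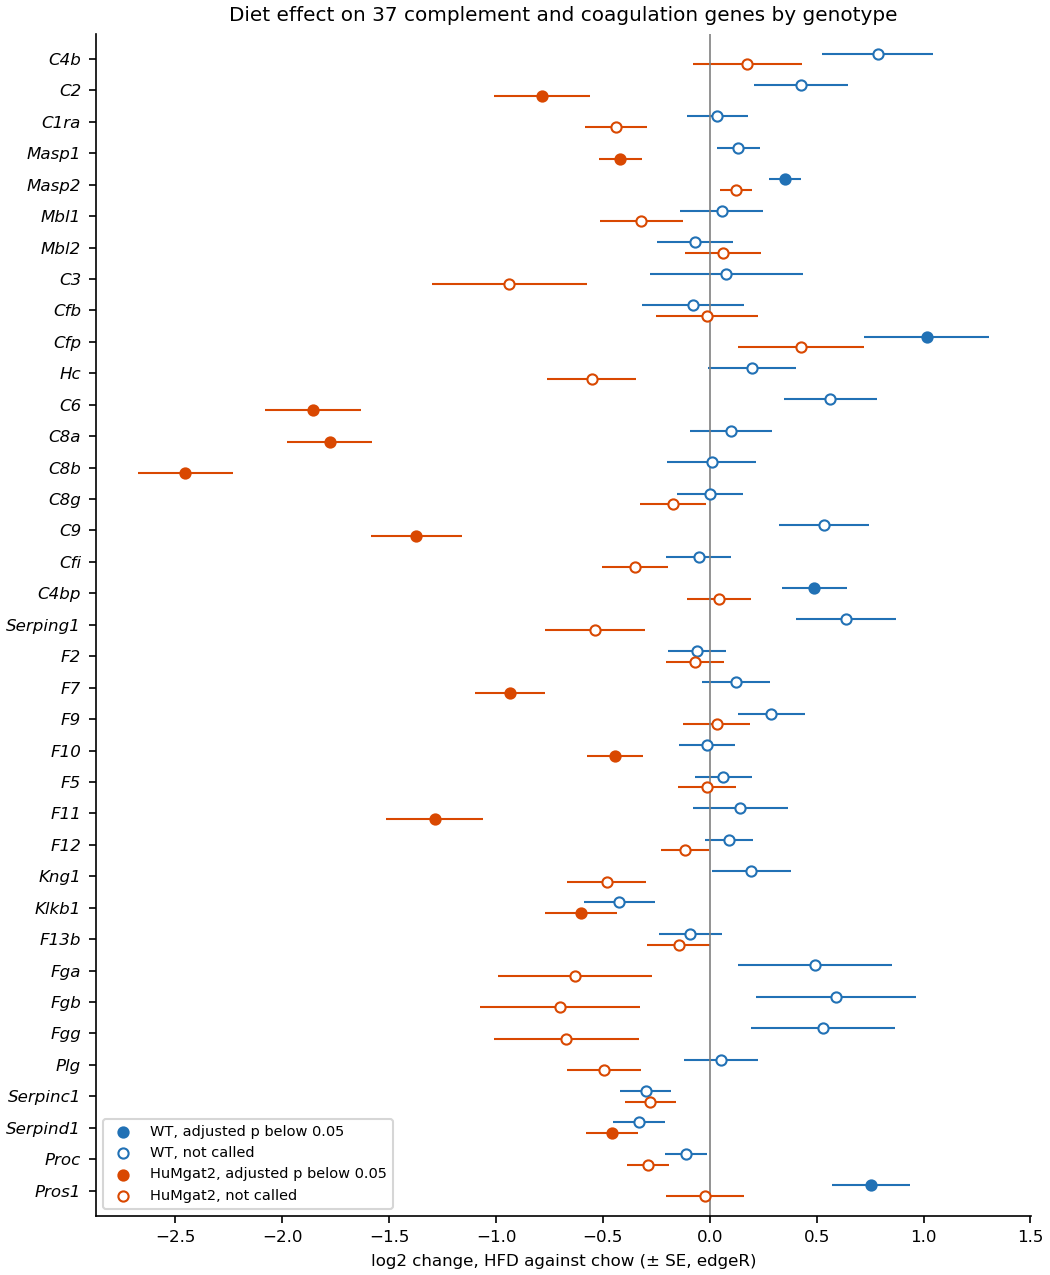
Log2 change between chow and HFD (horizontal axis, ± SE from edgeR) of 37 genes in WT (blue) and HuMgat2 mice (orange), with filled points for an adjusted p below 0.05. Cfd, at 8.05 and 5.66, is left out, and the HuMgat2 points of C8b, C6, C8a and C9 lie furthest to the left.

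The terminal attack complex held the largest falls. Of its 6 genes measured here, C6, C8a, C8b and C9 fell with HFD in HuMgat2 mice by 2.59- to 5.48-fold, while 0 of 6 changed with HFD in WT. The same 4 genes were lower in HFD-fed HuMgat2 than in HFD-fed WT, and their diet changes differed between the genotypes. Hc, which encodes C5, and C8g, the small lipocalin-like chain of C8, were not called with all libraries.

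C8b (ENSMUSG00000029656, GRCm39 chr4:104623514-104661745) encodes the beta chain of C8, which binds the forming complex. Its level was 189.7, 231, 193 and 213 CPM in the WT chow libraries and 247, 215, 165 and 204 CPM in the WT HFD libraries. It was 270.3, 156, 239 and 245 CPM in chow-fed HuMgat2 and 55.5, 46.5, 40.1 and 23.9 CPM in HFD-fed HuMgat2. All 4 HuMgat2 HFD libraries lay below all 12 others, and the other 3 groups overlapped each other. The fall with HFD in HuMgat2 was 5.48-fold (log2 -2.45 ± 0.22 SE, edgeR adjusted p = 4.56e-06), and the diet change differed between genotypes by log2 -2.46 ± 0.30 SE (adjusted p = 0.000195).

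C8a (ENSMUSG00000035031, GRCm39 chr4:104672876-104733595), the alpha chain, which is joined to the gamma chain in the finished protein, lies beside C8b with 11.1 kb between the genes. Its libraries held 663, 649, 674 and 678 CPM in chow-fed WT and 853, 704, 505 and 790.3 CPM in HFD-fed WT. In HuMgat2 they held 864, 627, 699.9 and 813 CPM on chow and 271, 249.5, 219 and 136 CPM on HFD. The HuMgat2 HFD libraries were again below all others. C8a fell 3.43-fold with HFD in HuMgat2 (log2 -1.78 ± 0.20 SE, adjusted p = 2.58e-05) and was 3.26-fold lower than in WT on HFD (adjusted p = 3.99e-05).

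C6 (ENSMUSG00000022181, GRCm39 chr15:4756657-4844449), the first protein to join C5b, was 222, 271, 189 and 171 CPM in chow-fed WT and 364, 346, 275 and 276 CPM in HFD-fed WT. In HuMgat2 it was 211, 199.9, 208 and 268 CPM on chow and 74.5, 81.8, 55.5 and 33.5 CPM on HFD. The WT HFD libraries all lay above the WT chow libraries, yet that difference was not called (log2 0.56 ± 0.22 SE, adjusted p = 0.0915), and 18.2% of all tested genes had no overlap between those groups. On HFD C6 was 5.14-fold lower in HuMgat2 than WT (log2 -2.36 ± 0.23 SE, adjusted p = 6.35e-06).

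C9 (ENSMUSG00000022149, GRCm39 chr15:6474808-6528232), whose copies form the wall of the pore, stood at 301, 397, 349.6 and 391 CPM in chow-fed WT and 659, 408, 342 and 675 CPM in HFD-fed WT. It stood at 709.9, 396, 598 and 614 CPM in chow-fed HuMgat2 and 221, 199, 254 and 221 CPM in HFD-fed HuMgat2. The HuMgat2 HFD libraries were the 4 lowest of the 16. C9 fell 2.59-fold with HFD in HuMgat2 (log2 -1.37 ± 0.21 SE, adjusted p = 0.000419), and its diet change was more negative than in WT by log2 -1.91 ± 0.30 SE (adjusted p = 0.00144). On chow C9 was 1.61-fold higher in HuMgat2, with an adjusted p of 0.202 that missed the threshold.

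Hc was 1017 ± 45.2 CPM in chow-fed WT, 1167 ± 444 CPM in HFD-fed WT, 1269 ± 190.2 CPM in chow-fed HuMgat2 and 865 ± 24.4 CPM in HFD-fed HuMgat2. Its HuMgat2 diet change of log2 -0.55 ± 0.21 SE was not called with all libraries (adjusted p = 0.0896) and was called without WT HFD library 4 (adjusted p = 0.0272) or library 3 (adjusted p = 0.0461). C8g was 99.9 ± 18.8, 99.9 ± 14.6, 102 ± 22.7 and 90.9 ± 4.05 CPM in the same order, and the 95% interval of its HuMgat2 diet change was log2 -0.47 to 0.13. The calls of C6, C8a, C8b and C9 in HuMgat2 with diet, between genotypes on HFD and for the difference between diet changes all held whichever of the 16 libraries was left out.

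**Figure D4:**
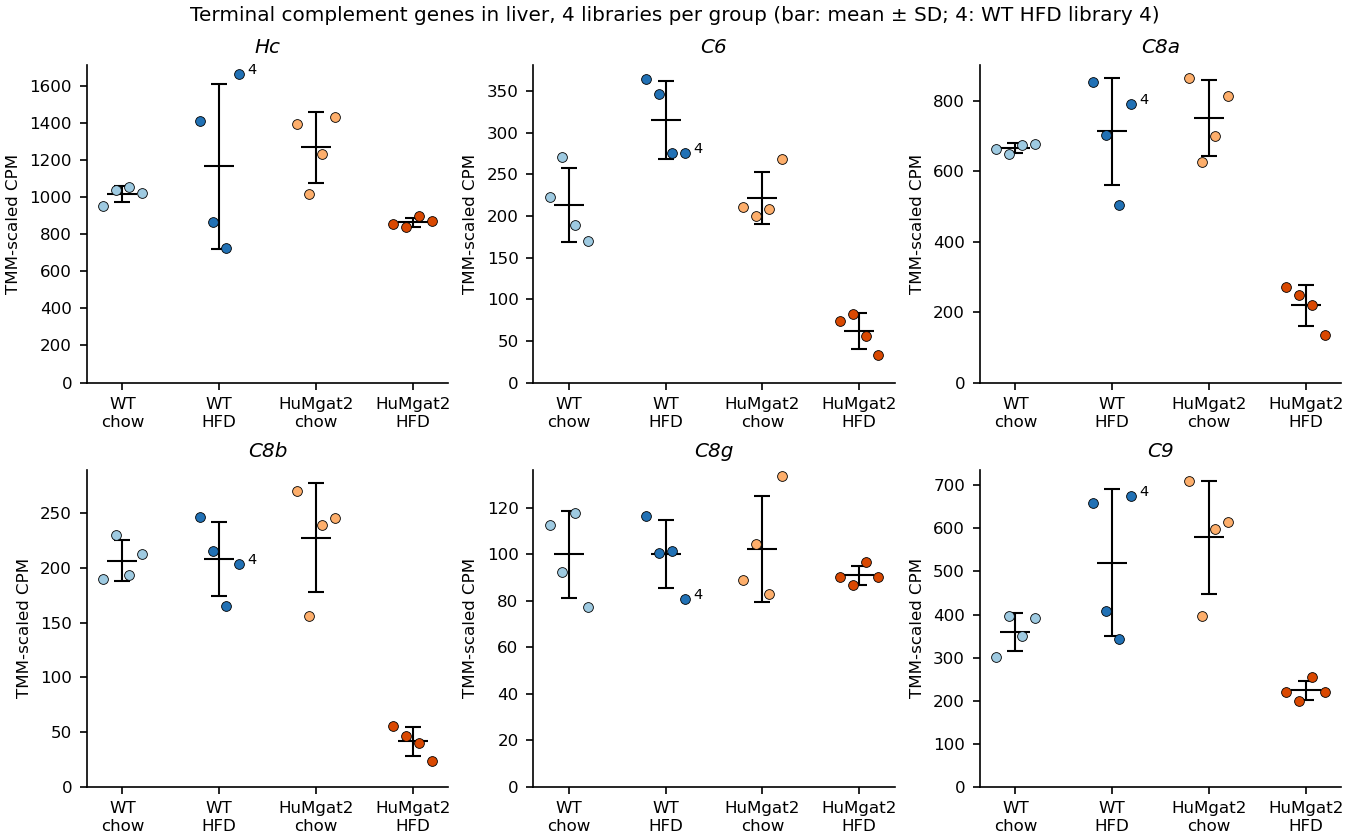
TMM-scaled CPM (vertical axes) of 6 terminal complement genes in the 4 libraries of each group (points), with mean ± SD as bars and WT HFD library 4 marked. The HuMgat2 HFD points of C6, C8a, C8b and C9 lie below those of the other 3 groups, and those of C8g, at 86.8 to 96.5 CPM, lie among them.

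Levels per kb of exon put the 6 genes on a scale where they can be set side by side. In WT on chow C8a was at 183 CPM per kb, Hc at 162, C9 at 150.1, C8b at 92.3, C8g at 66.9 and C6 at 61.5. In HuMgat2 on HFD the order was Hc at 138, C9 at 93.4, C8g at 60.9, C8a at 60.2, C8b at 18.5 and C6 at 17.7 CPM per kb. The ratio of C8b to C8a per kb was 0.504 ± 0.053 in WT on chow, 0.479 ± 0.047 in WT on HFD, 0.489 ± 0.063 in HuMgat2 on chow and 0.305 ± 0.020 in HuMgat2 on HFD. The ratio of C8g to C8a was 0.366 ± 0.069, 0.355 ± 0.099 and 0.336 ± 0.079 in the first 3 groups and 1.09 ± 0.37 in HuMgat2 on HFD. These ratios, for which no test was run, show that the 3 C8 chains did not keep their proportions in HuMgat2 on HFD.

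The promoters of the 4 genes that fell together and of the 3 fibrinogen genes are shown because each set shares a direction across libraries. They are RefSeq windows of the build GRCm38.p6 (the counts use GRCm39), found for 29 of the 38 genes, and are printed 5′ to 3′ on the gene's own strand. Each window covers 250 bases before the start site, less any bases that the GENCODE M21 annotation of that build places in an exon of the gene (35 for C6, 19 for C9 and 77 for Fga). C6 is at chr15:4726960-4727174 on the plus strand, C8a at chr4:104876399-104876648 on the minus strand, C8b at chr4:104766067-104766316 on the plus strand and C9 at chr15:6445096-6445326 on the plus strand. Fga is at chr3:83025903-83026075 and Fgg at chr3:83007474-83007723 on the plus strand, and Fgb at chr3:83049864-83050113 on the minus strand. Capitals mark matches, on either strand, to 5 short motifs of liver and cytokine-regulated factors: the HNF1 core GTTAAT, the HNF4 site CAAAGTNCA, the C/EBP site TTGCNNAA, the interleukin-6 response element CTGGGAA and the STAT palindrome TTCNNNGAA.
C6: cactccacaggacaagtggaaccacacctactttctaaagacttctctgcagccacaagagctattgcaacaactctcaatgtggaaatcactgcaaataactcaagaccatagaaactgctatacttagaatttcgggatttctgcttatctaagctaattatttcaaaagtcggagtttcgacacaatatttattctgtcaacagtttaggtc
C8a: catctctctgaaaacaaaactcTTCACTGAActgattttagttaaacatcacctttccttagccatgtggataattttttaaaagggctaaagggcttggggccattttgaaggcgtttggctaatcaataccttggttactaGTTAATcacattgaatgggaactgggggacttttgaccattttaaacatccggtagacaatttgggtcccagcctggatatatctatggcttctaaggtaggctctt
C8b: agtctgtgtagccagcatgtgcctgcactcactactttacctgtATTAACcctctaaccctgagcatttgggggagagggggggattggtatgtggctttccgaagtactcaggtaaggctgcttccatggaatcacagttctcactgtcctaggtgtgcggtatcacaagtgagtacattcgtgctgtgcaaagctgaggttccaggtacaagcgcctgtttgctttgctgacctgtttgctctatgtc
C9: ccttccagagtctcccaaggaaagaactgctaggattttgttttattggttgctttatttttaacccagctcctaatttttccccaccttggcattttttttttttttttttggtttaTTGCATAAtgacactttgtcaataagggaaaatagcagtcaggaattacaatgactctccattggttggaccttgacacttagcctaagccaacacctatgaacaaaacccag
Fga: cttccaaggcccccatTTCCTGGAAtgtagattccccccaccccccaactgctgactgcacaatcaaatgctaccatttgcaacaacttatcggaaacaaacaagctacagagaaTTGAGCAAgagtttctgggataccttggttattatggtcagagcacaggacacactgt
Fgb: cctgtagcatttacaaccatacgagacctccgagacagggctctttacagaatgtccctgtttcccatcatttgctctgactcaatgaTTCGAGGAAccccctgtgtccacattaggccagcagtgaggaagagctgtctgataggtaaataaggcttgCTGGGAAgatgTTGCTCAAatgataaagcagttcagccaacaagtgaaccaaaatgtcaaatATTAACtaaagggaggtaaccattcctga
Fgg: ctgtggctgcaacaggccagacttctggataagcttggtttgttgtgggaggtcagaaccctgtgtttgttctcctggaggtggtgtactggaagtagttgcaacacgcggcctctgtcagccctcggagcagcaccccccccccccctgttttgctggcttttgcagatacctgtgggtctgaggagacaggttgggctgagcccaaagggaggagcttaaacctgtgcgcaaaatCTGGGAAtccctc

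Over the full 250 bases the HNF1 core was present in 9 of the 29 genes (31.0%) and in 6.43% of all 32851 windows. Those 9 included C8a, C8b, Hc, Fga and Fgb, and the match of Fga lies among the bases not printed. The C/EBP site was in 7 of the 29 genes (24.1%), C9, Fga and Fgb among them, and in 9.56% of all windows. The interleukin-6 element was in 5 of the 29 genes (17.2%), with Fgb and Fgg among the 5, and in 9.10% of all windows. The STAT palindrome was in 6 of the 29 genes (20.7%), with C8a, Fga and Fgb among the 6, and in 7.02% of all windows. The HNF4 site was in 1 of the 29 genes, F9 (3.45%), and in 1.19% of all windows. For all 5 motifs the share of the 29 counts genes, and the other share counts windows. Shares in such unlike units cannot show whether the 29 genes hold a motif more often. The letters of a STAT palindrome and an interleukin-6 element can overlap. The C6 window held no match to any of the 5, and a match says only that these letters stand in the window.

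Of the 7 genes of the classical and lectin routes, C2 and Masp1 fell with HFD in HuMgat2, Masp2 rose with HFD in WT, and C1ra, C2 and Masp1 were lower in HFD-fed HuMgat2 than in HFD-fed WT. C2 (ENSMUSG00000024371, GRCm39 chr17:35081580-35117241) encodes the protease of the classical C3 convertase. Its libraries were at 24.5, 21.1, 24.2 and 14.4 CPM in chow-fed WT, 24.9, 22.2, 22.4 and 44.2 CPM in HFD-fed WT, 18.9, 26.7, 20 and 26.8 CPM in chow-fed HuMgat2 and 10.2, 13.2, 15.1 and 15.3 CPM in HFD-fed HuMgat2. The 4 HuMgat2 HFD libraries did not overlap those of HuMgat2 on chow or WT on HFD, and library 4 was far above the rest of its group. C2 fell 1.72-fold in HuMgat2 with HFD (log2 -0.78 ± 0.22 SE, adjusted p = 0.0266) and was 2.1-fold lower than in WT on HFD (adjusted p = 0.00476, and 1.72-fold without library 4). Its HuMgat2 diet call was lost without chow-fed HuMgat2 library 14 or 16 or HFD-fed HuMgat2 library 9 or 10, with an adjusted p of up to 0.08. Its diet change differed between genotypes by log2 -1.21 ± 0.31 SE (adjusted p = 0.0355), a call lost without WT chow library 6 or 8, chow-fed HuMgat2 library 14 or 16, or HFD-fed HuMgat2 library 9, 10 or 11, with an adjusted p of up to 0.075.

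Exons of C2 share 44.2% of their bases with the readthrough gene Gm20547, and those of the neighbouring gene Cfb 81.6%. Gm20547 held 0 counts in all 16 libraries, and the counting command carries no option that assigns a read pair to more than 1 gene. A read pair that fits both genes is then counted for neither, so the levels of C2 and Cfb may leave out reads.

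Masp1 (ENSMUSG00000022887, GRCm39 chr16:23268167-23339565), a serine protease of the lectin route, was at 294, 213, 249 and 239 CPM in chow-fed HuMgat2 and 195, 188, 176 and 185 CPM in HFD-fed HuMgat2, with 219 to 256 CPM in chow-fed WT and 235 to 266 CPM in HFD-fed WT. Its fall of 1.34-fold (log2 -0.42 ± 0.10 SE, adjusted p = 0.0103) was small and left no overlap with any other group. The difference between the diet changes (log2 -0.55 ± 0.14 SE, adjusted p = 0.034) was lost when any of 11 libraries was left out (WT chow 5, 6 and 7, WT HFD 1 and 2, HuMgat2 chow 13 and 15, and HuMgat2 HFD 9 to 12), with an adjusted p of up to 0.083.

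Masp2, the lectin-route protease that cuts C4 and C2, was at 113, 123, 113 and 118 CPM in chow-fed WT and 142, 149, 158 and 145 CPM in HFD-fed WT. The groups did not overlap, and Masp2 rose 1.28-fold (log2 0.35 ± 0.08 SE, adjusted p = 0.00585; 0.00496 without library 4), a call lost without a filter on low counts (adjusted p = 0.0629) and with library totals. In HuMgat2 it was 117 to 132 CPM on chow and 127 to 145 CPM on HFD, which was not called. On the opposite strand Tardbp shares 54.9% of the exon bases of Masp2, and the counting used no strand. A read pair that fits both genes is then counted for neither, so the level of Masp2 may leave out reads. Tardbp fell with HFD in WT (log2 -0.33 ± 0.09 SE, adjusted p = 0.0233), and the part of the shared bases in either change was not tested.

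C1ra, a protease of the C1 complex, was 274, 258, 228 and 404 CPM in HFD-fed WT and 191, 178, 184 and 188 CPM in HFD-fed HuMgat2, with 263 to 312 CPM in chow-fed WT and 213 to 279 CPM in chow-fed HuMgat2. The HFD-fed HuMgat2 libraries lay below all 12 others. It was 1.57-fold lower than in WT on HFD (log2 -0.65 ± 0.14 SE, adjusted p = 0.0068; log2 -0.45 and adjusted p = 0.00667 without library 4). Its HuMgat2 diet change of log2 -0.44 ± 0.14 SE had an adjusted p of 0.0524, and was called without WT HFD library 4 (adjusted p = 0.00349), WT HFD library 3 or HuMgat2 chow library 14. The close copy C1rb moved alike, with log2 -0.74 ± 0.15 SE on HFD (adjusted p = 0.00341). The counting command carries no multi-mapping option, so a read pair aligned to both copies is counted for neither.

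Mbl2, a mannose-binding lectin, was the gene of the 38 that was called higher in HFD-fed HuMgat2. It was 178, 153, 151 and 125 CPM in HFD-fed WT and 286, 244, 210 and 177 CPM in HFD-fed HuMgat2, a 1.51-fold higher level (adjusted p = 0.0336) with overlapping groups. That call was lost without WT HFD library 2, 3 or 4 or HFD-fed HuMgat2 library 9 or 10, with an adjusted p of up to 0.107. The related lectin Mbl1 was 87.2 ± 4.83 CPM in chow-fed WT and 71.6 ± 9.84 CPM in HFD-fed HuMgat2 and was not called. C4b, which encodes C4, was 1152, 1028, 1219 and 988 CPM in chow-fed WT and 1928, 1336, 1084 and 3208 CPM in HFD-fed WT, with an adjusted p of 0.0503 just above the threshold and of 0.168 without library 4. Its close copy C4a was 137, 219.5, 150 and 129.9 CPM in chow-fed WT, was 285, 231, 227 and 498 CPM in HFD-fed WT, and rose by log2 0.96 ± 0.23 SE (adjusted p = 0.0117; 0.0217 without library 4).

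Of the 4 genes of C3 and the alternative route, Cfd rose with HFD in both genotypes, Cfp rose in WT with all libraries, and C3 and Cfb were not called with all libraries. C3 (ENSMUSG00000024164, GRCm39 chr17:57510970-57535136) encodes the protein on which all routes meet, and was at 6508, 5834, 7454 and 8203 CPM in chow-fed WT and 5709, 4238, 3532 and 16043 CPM in HFD-fed WT. In HuMgat2 it was 9882, 9402, 7731 and 8884 CPM on chow and 5614, 4186, 4738 and 4205 CPM on HFD. WT HFD libraries 1, 2 and 3 lay below all 4 WT chow libraries, and library 4 above all 15 others. With all libraries the WT diet change was log2 0.08 ± 0.36 SE (adjusted p = 0.919). Without library 4 its direction turned, and C3 fell 1.56-fold (log2 -0.64, adjusted p = 0.039). In HuMgat2 the groups did not overlap, as for 21% of all genes, and the change of log2 -0.94 had an adjusted p of 0.0978 with all libraries and of 0.0016 without library 4. Between genotypes on HFD C3 differed by log2 -0.66 with library 4 and 0.06 without it, and neither was called.

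Cfd (ENSMUSG00000061780, GRCm39 chr10:79726687-79728489) encodes adipsin, the protease that cuts factor B and is best known as a product of fat cells. It went from 0.236, 0.416, 0.136 and 0.297 CPM in chow-fed WT to 83.2, 129.9, 78.9 and 0.159 CPM in HFD-fed WT. In HuMgat2 it went from 0, 0.0759, 0.0537 and 0.234 CPM on chow to 3.01, 6.82, 6.97 and 4.08 CPM on HFD. Libraries 1, 2 and 3 of WT on HFD were above all others, while library 4, at 0.159 CPM, was within the WT chow range. The fitted increase in WT was log2 8.05 ± 1.09 SE (adjusted p = 0.000243; 8.46 without library 4), and in HuMgat2 log2 5.66 ± 1.39 SE (adjusted p = 0.0116). Cfd was 14.1-fold lower in HFD-fed HuMgat2 than in HFD-fed WT (adjusted p = 0.00396).

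The chow levels of Cfd rest on 23 counts over 4 libraries in WT and 8 in HuMgat2, against 6768 and 483 on HFD. To compare them, each sum of counts was divided by the summed TMM-scaled library sizes of its group. The ratio of HFD to chow was then 306 in WT, with a 95% interval of 204 to 484 that covers counting error only. In HuMgat2 it was 53.1 (26.7 to 124). The interaction test of Cfd gave log2 -2.40 ± 2.98 SE (adjusted p = 0.723). The 4 other genes that mark adipocytes (Adipoq, Plin1, Lep and Retn) were at 0 to 0.0977 CPM over the 16 libraries, with 47 of the 64 values at 0.

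Cfp, which encodes properdin and is known mainly from myeloid cells, was 7.56, 5.88, 10.5 and 6.18 CPM in chow-fed WT and 11.2, 11.8, 9.6 and 29.1 CPM in HFD-fed WT. It rose 2.02-fold (adjusted p = 0.0272). The call was lost without library 4 (log2 0.53, adjusted p = 0.0695) and without WT chow library 5, 6 or 8, with an adjusted p of up to 0.0815. Library 4 also held the highest macrophage and neutrophil marker sums given above, and their part in the Cfp result was not tested. Cfb, factor B, was 74.4 ± 17.6, 70.6 ± 23.8, 68.4 ± 21.8 and 68 ± 4.84 CPM in WT chow, WT HFD, HuMgat2 chow and HuMgat2 HFD.

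Among the 3 complement inhibitors, C4bp rose with HFD in WT and Serping1 was lower in HFD-fed HuMgat2 than in HFD-fed WT. Serping1 (ENSMUSG00000023224, GRCm39 chr2:84595731-84605788), the C1 inhibitor that also restrains kallikrein and factor XII, was 759.8, 599, 475 and 1407 CPM in HFD-fed WT and 486, 421, 446 and 419 CPM in HFD-fed HuMgat2, with 464 to 556 CPM in chow-fed WT and 584 to 692 CPM in chow-fed HuMgat2. Library 3 of WT on HFD lay within the HuMgat2 range, and library 4 far above all others. The difference on HFD was 1.83-fold (adjusted p = 0.0202) and 1.38-fold without library 4 (adjusted p = 0.0293), and the call was lost without HuMgat2 HFD library 10 or 12 (adjusted p up to 0.0564). The diet changes differed by log2 -1.17 ± 0.33 SE, just above the threshold (adjusted p = 0.0507), and the difference was called without WT HFD library 2, 3 or 4 (adjusted p = 0.039, 0.0125 and 0.0189).

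C4bp, which binds C4b and speeds the decay of the classical convertase, was 329, 295, 308 and 318 CPM in chow-fed WT and 422, 354, 349.8 and 628 CPM in HFD-fed WT without overlap. Its rise of 1.4-fold (adjusted p = 0.0392) was not called without library 4 (1.2-fold, adjusted p = 0.0835), nor without any of 7 other libraries (WT chow 5, 6, 7 and 8, WT HFD 1, and HuMgat2 HFD 10 and 12), with an adjusted p of up to 0.103. Cfi, factor I, was 512 ± 58 CPM in chow-fed HuMgat2 and 402 ± 28.7 CPM on HFD and was not called (adjusted p = 0.145).

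Of the 4 vitamin K dependent clotting zymogens, F7 and F10 fell with HFD in HuMgat2, F7 was lower than in WT on HFD, and F2 (prothrombin) and F9 were not called. F7 (ENSMUSG00000031443, GRCm39 chr8:13076034-13085809), which starts clotting when it meets tissue factor, was 47.5, 46.7, 51.4 and 44.7 CPM in chow-fed WT and 48.7, 40.8, 41.5 and 76.7 CPM in HFD-fed WT. It was 61, 55, 53.1 and 54.8 CPM in chow-fed HuMgat2 and 32.3, 23.2, 30.7 and 30.7 CPM in HFD-fed HuMgat2. The HuMgat2 HFD libraries were the 4 lowest of all. F7 fell 1.91-fold with HFD in HuMgat2 (log2 -0.94 ± 0.16 SE, adjusted p = 0.00108) and was 1.77-fold lower than in WT on HFD (1.49-fold without library 4, adjusted p = 0.00147). Its diet change differed between genotypes by log2 -1.06 ± 0.23 SE (adjusted p = 0.0134), whichever library was left out, but was not called with library totals as the scaling (adjusted p = 0.0684).

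F10, which lies 1.5 kb from F7 on chromosome 8, was 273, 219, 219 and 218 CPM in chow-fed HuMgat2 and 187, 175, 171 and 150.5 CPM on HFD. It fell 1.36-fold (adjusted p = 0.0324), and the call was lost without chow-fed HuMgat2 library 13 or HFD-fed HuMgat2 library 10, 11 or 12 (adjusted p up to 0.107). F2 was 933 ± 88.6, 895 ± 149, 945 ± 112 and 900.2 ± 35.6 CPM in WT chow, WT HFD, HuMgat2 chow and HuMgat2 HFD, and F9 was 150 ± 27, 183 ± 37.9, 184 ± 34 and 188 ± 6.28 CPM. The 95% interval of the HuMgat2 diet change was log2 -0.34 to 0.20 for F2 and -0.27 to 0.34 for F9.

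Of the 5 cofactor, intrinsic and contact genes, F11 and Klkb1 fell with HFD in HuMgat2, and F11 and Kng1 were lower than in WT on HFD. F11 (ENSMUSG00000031645, GRCm39 chr8:45694211-45715068), which activates factor IX, was 44.5, 57.3, 43.3 and 53.4 CPM in chow-fed WT and 72.9, 64.5, 51.5 and 29.4 CPM in HFD-fed WT. It was 73.5, 42.5, 78.1 and 58.3 CPM in chow-fed HuMgat2 and 28.7, 27.1, 25.3 and 22.2 CPM in HFD-fed HuMgat2. The HuMgat2 HFD libraries lay below all others, with library 4 of WT on HFD the nearest. F11 fell 2.44-fold with HFD in HuMgat2 (log2 -1.29 ± 0.23 SE, adjusted p = 0.00121) and its diet change differed from WT by log2 -1.43 ± 0.32 SE (adjusted p = 0.0153; -1.63 and 0.000521 without library 4).

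Klkb1, plasma prekallikrein, lies 4.66 kb from F11. It was 425, 410.3, 457 and 438 CPM in chow-fed WT and 409, 352, 339 and 191 CPM in HFD-fed WT, and 468, 444, 413 and 411 CPM in chow-fed HuMgat2 and 327, 278, 271 and 267 CPM in HFD-fed HuMgat2. In both genotypes the HFD libraries lay below all chow libraries, and only the HuMgat2 change was called in the edgeR test (1.52-fold, adjusted p = 0.0224, against 1.34-fold and 0.0977 in WT). The difference between these changes was not called (adjusted p = 0.741). The HuMgat2 call was lost without chow-fed HuMgat2 library 13 or HFD-fed HuMgat2 library 10, 11 or 12 (adjusted p up to 0.0688). Without library 4, Klkb1 was lower in HFD-fed HuMgat2 than in HFD-fed WT (log2 -0.36, adjusted p = 0.027), against log2 -0.17 and 0.507 with it.

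Kng1, kininogen, was 1641, 1316, 1342 and 2485 CPM in HFD-fed WT and 1236, 1135, 1024 and 1026 CPM in HFD-fed HuMgat2, 1.53-fold lower (adjusted p = 0.0344). That call was lost without WT HFD library 4 (log2 -0.37, adjusted p = 0.0807) or HFD-fed HuMgat2 library 10, 11 or 12, with an adjusted p of up to 0.0899. Its close copy Kng2 was 185 to 379 CPM in HFD-fed WT and 162 to 184 CPM in HFD-fed HuMgat2. F5, the cofactor of factor Xa, was 1101 ± 125 CPM in chow-fed WT and 1127 ± 61.3 CPM in HFD-fed HuMgat2, and F12 was 289.8 ± 17.5 and 279.6 ± 12.6 CPM. Neither gene was called.

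Of the fibrinogen genes and F13b, 0 of 4 were called with all libraries, and the levels of the 3 fibrinogen genes in WT on HFD turned on library 4. Fga (ENSMUSG00000028001, GRCm39 chr3:82933383-82940934), the alpha chain, was 2671, 3050.2, 3352 and 3306 CPM in chow-fed WT and 3157, 2285, 2163 and 9807 CPM in HFD-fed WT. It was 3547, 3501, 3273 and 3556 CPM in chow-fed HuMgat2 and 2598, 1893, 2523 and 1952 CPM in HFD-fed HuMgat2. The other 15 libraries lay at or below 3556 CPM, and library 4 far above them. With all libraries the diet change was log2 0.49 in WT and -0.63 in HuMgat2, with adjusted p of 0.396 and 0.279.

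Fgb, the beta chain, was 2655, 2005, 1818 and 8730.2 CPM in HFD-fed WT and 2252, 1648, 2036 and 1495 CPM in HFD-fed HuMgat2, with 2137 to 2949 CPM in chow-fed WT and 2677 to 3446 CPM in chow-fed HuMgat2. Fgg, the gamma chain, was 1948, 1357, 1206 and 5294 CPM in HFD-fed WT and 1415, 1073, 1349 and 1091 CPM in HFD-fed HuMgat2, with 1585 to 1823 and 1791 to 2059 CPM on chow. In each of the 3 genes the HuMgat2 HFD libraries lay below all HuMgat2 chow libraries. Without library 4 all 3 fell with HFD in HuMgat2, by 1.55-fold for Fga, 1.63-fold for Fgb and 1.59-fold for Fgg, with adjusted p of 0.00874, 0.00668 and 0.00465. In WT the change without library 4 was log2 -0.29, -0.23 and -0.18 and was not called, where with it the sign was positive. Between genotypes on HFD the differences of log2 -0.96, -1.03 and -0.99 were not called and became -0.18, -0.22 and -0.29 without library 4.

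The 3 chains, which are joined in equal numbers in the finished protein and lie within 1 cluster on chromosome 3, had ratios whose ranges overlapped between the groups. Per kb, the ratio of Fga to Fgb was 1.56 ± 0.10 in WT on chow, 1.47 ± 0.04 in WT on HFD, 1.47 ± 0.16 in HuMgat2 on chow and 1.53 ± 0.10 in HuMgat2 on HFD, and 1.42 in library 4. The ratio of Fgg to Fgb was between 1.19 and 1.23 on average in the 4 groups and 1.10 in library 4. F13b, a carrier subunit of the cross-linking factor XIII, was 163 ± 21 CPM in chow-fed WT and 159 ± 11.6 CPM in HFD-fed HuMgat2, and stayed at 125 CPM in library 4.

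**Figure D5:**
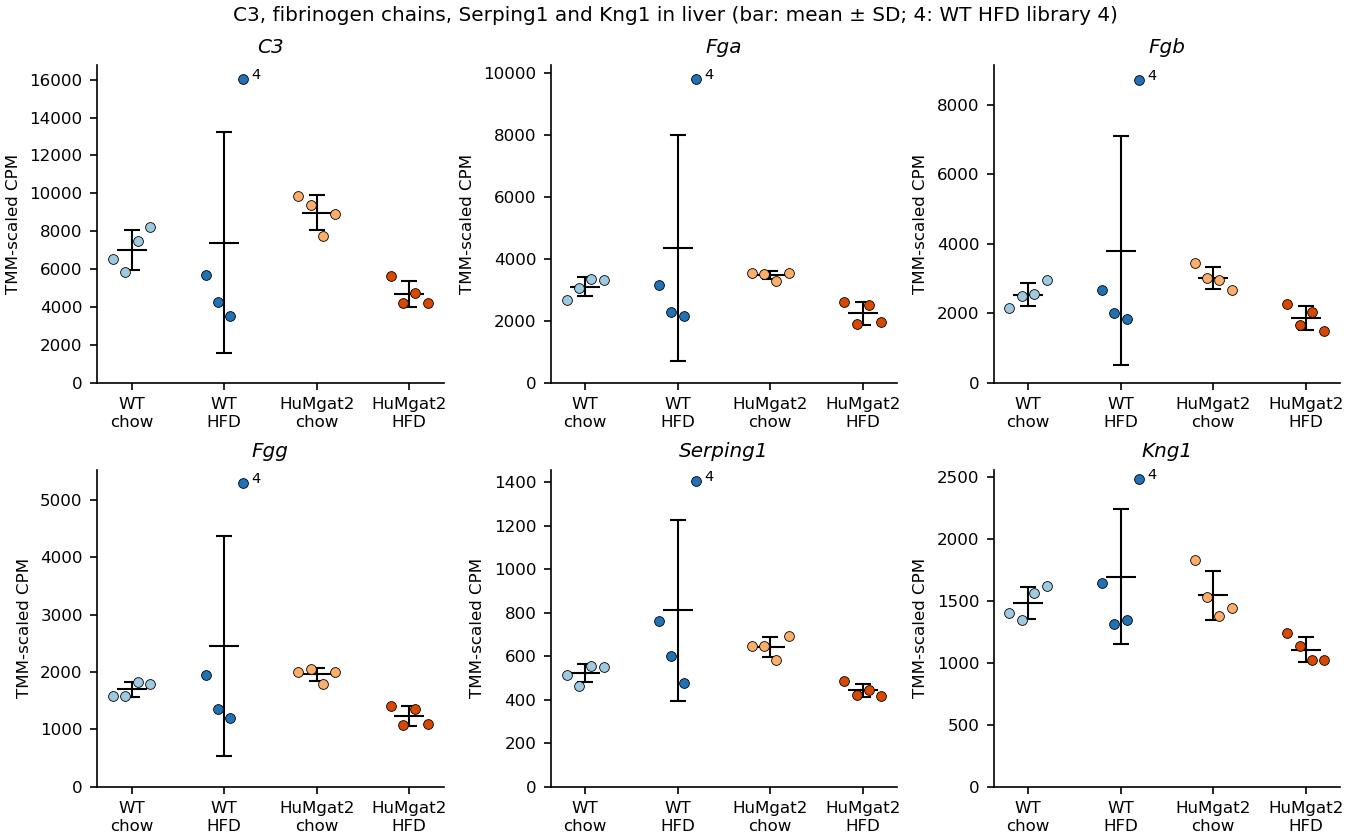
TMM-scaled CPM (vertical axes) of C3, the 3 fibrinogen chains, Serping1 and Kng1 in the 4 libraries of each group (points), with mean ± SD as bars. WT HFD library 4 (marked 4) is the highest of the 16 in each panel, at 16043 CPM for C3 and 9807 CPM for Fga.

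Among the 5 anticoagulant and fibrinolytic genes, Pros1 rose with HFD in WT and Serpind1 fell with HFD in HuMgat2. Pros1 (ENSMUSG00000022912, GRCm39 chr16:62674670-62749709) encodes protein S, the cofactor of activated protein C. It was 45.5, 43.6, 46.4 and 44.1 CPM in chow-fed WT and 70, 54.1, 58.7 and 121 CPM in HFD-fed WT, and 62.2, 67.3, 53.4 and 57.5 CPM in chow-fed HuMgat2 and 54.6, 58.1, 62.4 and 61.8 CPM in HFD-fed HuMgat2. WT on chow lay below all 12 other libraries. Pros1 rose 1.69-fold with HFD in WT (adjusted p = 0.0113), and 1.36-fold without library 4 (adjusted p = 0.00565), but was not called in a fit of those 2 groups alone (adjusted p = 0.0673). On chow it was 1.34-fold higher in HuMgat2 than WT, with an adjusted p of 0.406 with all libraries and 0.0291 without library 4, the only one of the 38 called on chow in either fit. The diet changes differed by log2 -0.78 with an adjusted p of 0.0994, which was called without WT HFD library 2 (0.0419) or 4 (0.0455).

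Serpind1, heparin cofactor II, was 512, 489, 389 and 444 CPM in chow-fed HuMgat2 and 365, 333, 336 and 302 CPM on HFD and fell 1.37-fold (adjusted p = 0.0195). That call was lost without chow-fed HuMgat2 library 13 or HFD-fed HuMgat2 library 10, 11 or 12 (adjusted p up to 0.0704). In WT it was 356 to 444 CPM on chow and 283 to 384 CPM on HFD, a change of log2 -0.33 with an adjusted p of 0.0806. Plg, plasminogen, was 1791 ± 277 CPM in chow-fed HuMgat2 and 1269 ± 125 CPM on HFD, with an adjusted p of 0.0683 that became 0.0225 without library 4. Proc, protein C, was 255 ± 19.9 and 209 ± 12.8 CPM, with adjusted p of 0.0589 and 0.0333. Serpinc1, antithrombin, was 1186 ± 62 CPM in chow-fed WT, 963 ± 77.1 CPM in HFD-fed WT, 1219 ± 119.8 CPM in chow-fed HuMgat2 and 1004 ± 74.8 CPM in HFD-fed HuMgat2. Its WT groups did not overlap, and it was not called in either genotype (adjusted p = 0.0999 in WT and 0.135 in HuMgat2). Serpinc1 shares 34.6% of its exon bases with Zbtb37 and Plg 11.3% with Slc22a3, both on the opposite strand, so their levels may also leave out reads.

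Other complement genes were counted from a list of 32, of which 30 were tested. Beside this list, 8.37% of all tested genes rose and 6.74% fell with HFD in WT (7.69% and 7.01% without library 4). With HFD in HuMgat2 these shares were 7.56% and 6.4% (10.7% and 8.58%). Between genotypes on HFD 7.21% were higher and 7.56% lower (7.39% and 6.79%), and on chow 0.266% and 0.243%. The diet change was more positive in HuMgat2 for 2.61% and more negative for 2.26% (3.4% and 3%). With HFD in HuMgat2, 1 rose and 3 fell, and 5 rose and 6 fell without WT HFD library 4. Cpn2 (log2 -0.58 ± 0.16 SE), a subunit of the carboxypeptidase that trims complement peptides, was among those that fell, and the lectin Colec11 rose (log2 0.89 ± 0.22 SE). With HFD in WT, 5 rose and 2 fell (2 and 2 without library 4), with C4a and C3ar1, a receptor for the C3a peptide (log2 1.04 ± 0.25 SE), among those that rose. Between genotypes on HFD 2 were higher, among them the membrane inhibitor Cd59a (log2 0.55 ± 0.14 SE), and 3 lower, C1rb among them, and without library 4 these counts were 4 and 1. On chow 0 differed in the edgeR test, with 7 at an unadjusted p below 0.05, a cut at which no share of all genes was taken. The diet changes of 1, Cpn2, differed between genotypes.

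From a list of 25 other coagulation genes, 22 were tested, beside the same shares of all tested genes as for the complement list. With HFD in HuMgat2, 4 rose and 2 fell, and 4 rose and 5 fell without library 4. The plasminogen activators Plau (log2 1.54 ± 0.33 SE) and Plat (log2 1.74 ± 0.41 SE) and Vwf, von Willebrand factor (log2 0.62 ± 0.15 SE), were among those that rose, and the protease Habp2 (log2 -0.50 ± 0.12 SE) among those that fell. With HFD in WT, F3, tissue factor (log2 1.17 ± 0.33 SE), and Cpb2, an inhibitor of fibrinolysis (log2 0.96 ± 0.30 SE), rose, the latter not called without library 4. Between genotypes on HFD 3 were higher and 3 lower (2 and 2 without library 4), with Mcfd2 and Plat higher and Cpb2 and Habp2 lower, the last not called without library 4. The diet change of 1, Habp2, differed between genotypes, and those of 3 genes did without library 4. On chow 0 differed in the edgeR test, with 4 at an unadjusted p below 0.05, again without a share of all genes at that cut.

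Markers of other cell types moved with diet too. Beside them, 7.56% of all tested genes rose and 6.4% fell with HFD in HuMgat2, and 8.37% rose and 6.74% fell in WT. Without WT HFD library 4 these shares were 10.7% and 8.58% in HuMgat2 and 7.69% and 7.01% in WT. In HuMgat2, 6 of 8 stellate cell markers rose with HFD, with a summed level of 204 to 329 CPM on chow and 456 to 524 CPM on HFD, and 2 of 7 endothelial markers rose, Vwf among them. Macrophage markers summed to 278 to 365 CPM on chow and 359 to 440 CPM on HFD in HuMgat2, with 0 of 14 called by edgeR with all libraries and 3 higher without WT HFD library 4. In WT, 6 of the 14 rose, and 3 without library 4. Of 20 other proteins that hepatocytes secrete, 4 fell and 0 rose with HFD in HuMgat2 (7 and 0 without library 4), Serpina3k (log2 -1.81 ± 0.23 SE) and Serpina1a (log2 -1.08 ± 0.20 SE) among them, with a median log2 change of -0.26 beside -0.43 for the 38 genes. The summed level of those 20 was 97389 to 127708 CPM on chow and 87677 to 103804 CPM on HFD. The part of cell composition in the falls of the 38 genes was not tested.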

How the data were processed

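Total RNA from 15 mg of mouse liver (RIN above 7, per the labels' protocols) was sequenced in 16 libraries after ribosomal RNA depletion. The authors deposited raw counts of read pairs per gene name, made with featureCounts 2.0.1 on GRCm39 with Ensembl 103 and no strand, multi-mapping or overlap option, per the file headers. STAR 2.7 and DESeq2 1.26.0 are named in the submitters' processing notes. The 64 records are 4 per library, and each library was counted once.

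Counts were tested with edgeR 4.0.16 (R 4.3.3, limma 3.58.1): filterByExpr, TMM scaling and a quasi-likelihood fit of the 4 groups over all 16 libraries, with Benjamini-Hochberg adjustment over 17318 genes and a threshold of 0.05. Standard errors are the log2 change over the square root of F. The difference between diet changes is the HuMgat2 change minus the WT change. The fit was also run on simulated counts that held no outlying library, so that run cannot show how the fit handles WT HFD library 4. Since the labels do not say how the mice of a group relate, p-values measure the spread between these libraries. CPM per kb uses the exon length in the count table.

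The members and all other lists were chosen with earlier results of these data known. Members called in any comparison, or whose call changed without WT HFD library 4, were described with values. For other lists, counts are given with up to 4 called genes of smallest adjusted p in a comparison, and some genes are not reported here. Each choice was also changed alone: the test (DESeq2 1.42.0), the scaling (size factors from DESeq2, or library totals), the filter (none, or 1 CPM on average), the samples (the 2 groups of a comparison alone) and the libraries (each left out in turn).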

Additional observations from a re-analysis of the deposited data

Results flagged for a closer look

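In 11 of 152 sets of 4 libraries (38 genes in 4 groups) the highest or lowest library stood further from the rest than Dixon's critical value, where chance gives about 1 in 20. Of these, 5 were WT HFD library 4: Cfp at 29.08 CPM (the other 3 at 9.602 to 11.77), C2 at 44.25 CPM (22.24 to 24.91), F10 at 248.8 CPM (179.5 to 191.2), Fga at 9807 CPM (2163 to 3157) and Fgb at 8730 CPM (1818 to 2655). The acute-phase, macrophage and neutrophil sums of that library are given with the report's account of it, and their part was not tested.

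The other 6 were spread over 5 libraries. Serpind1 was 383.8 CPM in WT HFD library 1 (the rest at 283 to 296), and C6 was 268.3 CPM in HuMgat2 chow library 16 (199.9 to 210.9). HuMgat2 chow library 13 was high for F9, at 235.1 CPM (161.5 to 171.3), and F10, at 273.2 CPM (217.8 to 219.1). F12 was low in HuMgat2 chow library 15, at 266 CPM (311.9 to 318.9), and Proc was high in HuMgat2 HFD library 9, at 227.7 CPM (199.7 to 204.3).

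The diet change differed between the genotypes in the edgeR interaction test for 8 genes, as log2 in HuMgat2 minus WT: C8b by -2.462, C6 by -2.419, C9 by -1.906, C8a by -1.877, F11 by -1.429, C2 by -1.209, F7 by -1.056 and Masp1 by -0.5513. C8b, C6, C9, C8a and F11 kept the call under every alternative tried. F7 was not called with library totals as the scaling, and C2 and Masp1 lost the call under that scaling and when some single libraries were left out.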

How the results depend on the processing

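Of 38 called member results, 27 kept their call whichever library was left out, 24 under the 6 other alternatives and 23 throughout. With library totals as the scaling, 2 of the 38 genes rose and 2 fell with HFD in WT, 2 rose and 6 fell in HuMgat2, and 5 had a more negative diet change in HuMgat2. The counts over all genes under that scaling are given above. DESeq2 gave 7 that rose and 2 that fell in WT, and 1 that rose and 17 that fell in HuMgat2. Of all 17318 genes it called 1608 higher and 1533 lower in WT, and 1415 and 1388 in HuMgat2. A fit of only the 2 groups compared gave 1 that rose in WT and 20 that fell in HuMgat2. That fit called 655 of all 16442 genes higher and 797 lower in WT, and 1596 of 16123 higher and 1278 lower in HuMgat2.

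With each library left out in turn, 3 to 8 members rose and 0 to 2 fell with HFD in WT. In HuMgat2, 7 (without HuMgat2 HFD library 10) to 21 (without WT HFD library 4) fell. The calls over all genes moved too, with 17626 to 17835 genes tested. Of these, 856 to 1522 rose and 817 to 1237 fell in WT. In HuMgat2, 679 to 1513 fell, lowest and highest in the same fits as for the members. The range of the member count therefore cannot be read as a result about the members alone. Between genotypes, 0 to 1 member was higher in HuMgat2 on chow and 0 to 1 on HFD. On HFD 10 to 16 members were lower, and 6 to 10 had a more negative diet change. Over all genes, 27 to 112 were higher on chow and 829 to 1352 on HFD. Of all genes, 756 to 1403 were lower on HFD, and 245 to 529 had a more negative diet change. C3 in WT was the only member result that turned its direction and was called in either fit, with log2 changes from -0.64 (without WT HFD library 4) to 0.31 (without library 3). Changes called in neither fit also turned sign without WT HFD library 4, those of Fga, Fgb and Fgg with HFD in WT and of C3 between genotypes on HFD among them. The cause was not tested in any of these. No paired analysis was possible because the groups share no library numbers. Groups of 4 limit which small changes can be called, and Cfd on chow rests on few counts.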

Other observations

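C6 is also one of 10 genes listed here as male-biased in mouse liver. With HFD in HuMgat2, 7 of these 10 fell and 0 rose (median log2 -1.95 beside -0.01 over all tested genes), and on HFD 5 were lower in HuMgat2 than in WT. Without WT HFD library 4 these counts were 9 and 8. Of all tested genes, 6.4% fell with HFD in HuMgat2 and 7.56% were lower than in WT on HFD (8.58% and 6.79% without library 4). Of 11 female-biased genes, 7 were tested, and 3 rose and 3 fell with HFD in HuMgat2. On HFD 3 of them were higher and 1 lower in HuMgat2 than in WT, and 3 and 3 without WT HFD library 4. In that comparison 7.21% of all tested genes were higher in HuMgat2, and 7.39% without library 4. In WT, 1 male-biased and 4 female-biased genes fell with HFD, and 1 male-biased gene also rose without library 4. Over all tested genes, 7.56% rose with HFD in HuMgat2 and 6.74% fell in WT, and 7.69% rose in WT without library 4. The labels used here do not give the sex of the mice. The Y-linked gene Ddx3y had 934 to 2120 counts in each of the 16 libraries, and Xist, which is transcribed from an inactive X chromosome, had 0 to 34. By both genes all 16 libraries had the pattern of male mice. The part of the sex-biased genes in the C6 result was not tested.

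From a list of 15 regulators of liver and acute-phase genes, 3 rose and 2 fell with HFD in WT and 1 rose and 3 fell in HuMgat2, and without WT HFD library 4 these counts were 2 and 2 in WT and 1 and 5 in HuMgat2. In WT, Socs3, an inhibitor of cytokine signalling (log2 3.21 ± 0.75 SE), rose and Hnf4a, a main hepatocyte transcription factor (log2 -0.54 ± 0.14 SE), fell. In HuMgat2, Hnf4a (log2 -0.48 ± 0.14 SE) and Il6ra, the interleukin-6 receptor (log2 -0.74 ± 0.22 SE), fell. Of 16 acute-phase genes, 11 rose with HFD in WT, and 5 rose and 1 fell without WT HFD library 4. In HuMgat2 0 rose and 1 fell, Hamp (log2 -1.73 ± 0.56 SE), and 2 rose and 3 fell without that library. Beside both lists, 8.37% of all tested genes rose and 6.74% fell in WT, and 7.56% and 6.4% in HuMgat2. Without library 4 these shares were 7.69% and 7.01% in WT and 10.7% and 8.58% in HuMgat2.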
